A study of Homo sapiens with 42 samples.

Results

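The genes examined were VIM, LMNA, LMNB1, LMNB2, LBR, SUN1, SUN2, EMD and FSCN1, 9 of the 18417 genes measured, which encode vimentin, the lamins, proteins of the nuclear envelope and fascin. They were picked by name, after VIM had been seen to be lower with all-trans retinoic acid (ATRA) in the inhibitor experiment, and each was read from its probe set of highest mean over all 42 arrays; each had 1 probe set. RNA came from HL-60 cells, an established human acute myeloid leukemia line, on Affymetrix Human Gene 1.0 ST arrays, in 14 groups of 3 arrays. One experiment, with inhibitors (18 arrays), had cells given HKMTI-1-005 (2.5 µM) with ATRA (0.1 µM), GSK343 (10 µM) with ATRA, ATRA alone, HKMTI-1-005 alone, GSK343 alone, or none of these (untreated), for 3 days. GSK343 inhibits the H3K27 methyltransferase EZH2, and HKMTI-1-005 was used to inhibit both EZH2 and the H3K9 methyltransferases EHMT1 and EHMT2. The other, with knockdown (24 arrays), had cells carrying 1 of 2 lentiviral hairpins against EZH2 (shEZH2#1, shEZH2#2), cells carrying a non-targeting hairpin (Scr) and cells labelled WT, each with and without ATRA. The transduced cells had been selected in puromycin, and EZH2 knockdown (KD) below means the average of both hairpins. All groups share the HL-60 background, so every value refers to 1 cell line, and nothing in the sources used here says whether the WT cells passed through puromycin.

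ATRA drives HL-60 promyelocyte-like cells toward granulocytes, whose nuclei become lobed and deformable. Lamins form the filament meshwork under the inner nuclear membrane: A-type lamins from LMNA stiffen the nucleus, while B-type lamins from LMNB1 and LMNB2 are held at the membrane. LBR, the lamin B receptor, is an inner-membrane protein that binds B-type lamins and also reduces sterols, and inherited loss of LBR function leaves human neutrophils with too few nuclear lobes (the Pelger-Huët anomaly). SUN1 and SUN2 are the inner-membrane components of the LINC complex, which couples the lamina to the cytoskeleton, and EMD encodes emerin, a LEM-domain protein that binds lamins and chromatin. Vimentin is the intermediate filament protein of the cytoplasm in mesenchymal and blood cells, and fascin, from FSCN1, bundles actin filaments.

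The promoters of VIM and LBR are shown because these were the members called in the same direction in all 6 of the ATRA comparisons that were tested. RefSeq promoter windows (GRCh38.p14, 250 bases before the gene start and 50 from it) matched 7 of the 9 members; SUN1 and FSCN1 were not matched. Capitals mark matches, on either strand, to the GC box GGGCGG, to CCAAT, to the core element of retinoic acid receptor sites (AGGTCA), to an AP-1 site (TGANTCA) or to an ETS core (GGAAGT). The VIM window lies at chr10:17227991-17228290 on the plus strand and the LBR window at chr1:225428772-225429071 on the minus strand.
VIM: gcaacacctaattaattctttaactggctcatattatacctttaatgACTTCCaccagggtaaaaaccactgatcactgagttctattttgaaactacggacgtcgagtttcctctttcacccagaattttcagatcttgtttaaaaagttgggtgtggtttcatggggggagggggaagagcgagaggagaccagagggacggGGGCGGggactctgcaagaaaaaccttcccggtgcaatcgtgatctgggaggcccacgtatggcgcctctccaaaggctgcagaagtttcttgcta
LBR: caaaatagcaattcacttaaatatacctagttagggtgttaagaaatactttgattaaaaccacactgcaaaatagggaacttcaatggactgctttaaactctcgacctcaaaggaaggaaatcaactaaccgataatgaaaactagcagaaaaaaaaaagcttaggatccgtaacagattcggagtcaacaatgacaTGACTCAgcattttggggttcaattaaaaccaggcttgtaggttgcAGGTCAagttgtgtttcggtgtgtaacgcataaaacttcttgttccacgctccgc
The VIM window held 1 GC box, starting 46 bases before the gene start, and 1 ETS core, starting 203 bases before it on the other strand. The LBR window held 1 AGGTCA, starting 5 bases before the gene start, and 1 AP-1 match, starting 51 bases before it. Of 27305 promoters of the same length, 44.6% held GGGCGG, 35.7% CCAAT, 13.9% AGGTCA, 7.76% TGANTCA and 23.2% GGAAGT. The windows had 48.0% G and C with 10 CpG (VIM) and 38.3% with 8 CpG (LBR), where the median promoter had 58.3% and 14. These matches describe the sequence only.

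Values were log2 levels. A gene was called at a Benjamini-Hochberg adjusted p of at most 0.05 from limma, a fold of at least 1.3 and a mean in the top 40% of genes (7367 genes). VIM, LMNA, LMNB1, LMNB2, LBR, SUN2, EMD and FSCN1 could therefore be called (8 of 9), and SUN1, at the 58.4th percentile, could not. The targeted gene, EZH2, had log2 levels of 9.13, 9.20 and 9.49 with shEZH2#1, of 8.98, 9.56 and 9.33 with shEZH2#2, of 10.26, 10.44 and 10.39 in Scr cells and of 9.81, 9.92 and 10.34 in WT cells. EZH2 fell by 1.08 on the log2 scale in KD cells against Scr (standard error 0.13, adjusted p = 1.72e-05), and by 0.74 against WT (adjusted p = 0.00475). The call against WT ended without WT replicate 3 (adjusted p = 0.139). The primary granule gene MPO had a mean level of 12.95, at the 99.8th percentile of genes, while 0 of 5 lymphoid, 0 of 5 erythroid and megakaryocyte and 0 of 6 stromal marker genes reached the top 40%. In 6 knockdown arrays (Scr replicates 1 and 2, Scr+ATRA replicate 3, WT+ATRA replicate 3, shEZH2#1 replicate 1 and shEZH2#2 replicate 2) the array median ran from 5.47 to 5.56, while the remaining knockdown arrays had medians from 5.31 to 5.44. Leaving these 6 out leaves 1 Scr array (replicate 3), 2 arrays each of Scr+ATRA, WT+ATRA, shEZH2#1 and shEZH2#2, and 3 of the other knockdown groups. The lone Scr array is then assumed to vary like the other groups, so a call lost against it says little and the log2 fold change is given beside it. With these arrays left out, EZH2 differed by -1.14 against the lone Scr array (adjusted p = 0.0210) and by -0.77 against WT (adjusted p = 0.00893).

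VIM was lower with ATRA in every background. In the contrast on which it was picked, VIM levels were 6.43, 6.50 and 6.38 with ATRA alone, against 8.93, 9.30 and 8.42 in untreated cells, a difference of -2.45. This difference is a description with no test, and 13.1% of the genes that could be called passed the call rule in that contrast. The 6 other backgrounds used separate arrays. In WT cells VIM stood at 6.35, 6.11 and 6.10 with ATRA, against 9.03, 8.55 and 8.06 without it. The log2 fold change was -2.36 (standard error 0.26, adjusted p = 5.33e-07), where 2.13% of genes were called. In Scr cells VIM stood at 6.48, 6.77 and 6.42 with ATRA, against 8.97, 8.52 and 8.93 without, a log2 fold change of -2.25 (standard error 0.26, adjusted p = 1.35e-06), with 4.98% of genes called. In bulk RNA, fewer cells that express a gene and less RNA of it per cell cannot be told apart.

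The same direction was seen with either EZH2 hairpin and with either inhibitor. With shEZH2#1, VIM levels were 6.59, 6.54 and 6.27 with ATRA, against 9.13, 9.51 and 9.95 without. With shEZH2#2 they were 7.11, 6.67 and 6.54 with ATRA, against 10.26, 9.51 and 9.36 without. The log2 fold changes were -3.06 (adjusted p = 9.77e-10) and -2.93 (adjusted p = 3.32e-09), and 8.65% and 8.36% of genes were called with the first and the second hairpin. In GSK343-treated cells VIM stood at 6.85, 6.79 and 6.70 with ATRA, against 8.84, 9.05 and 8.54 without, a log2 fold change of -2.03 (adjusted p = 6.90e-06) with 10.4% of genes called. In HKMTI-1-005-treated cells VIM stood at 6.25, 6.18 and 7.39 with ATRA, against 9.32, 9.45 and 9.50 without, a log2 fold change of -2.82 (adjusted p = 7.83e-09) with 4.05% of genes called. Replicate 3 of HKMTI-1-005+ATRA was the highest of all ATRA arrays and still lay below every array without ATRA. Over the 6 tested backgrounds, VIM was between 6.10 and 7.39 (median 6.54) in the 18 arrays with ATRA and between 8.06 and 10.26 (median 9.09) in the 18 arrays without. Ranges that did not overlap in this way were found for 58 of 7367 genes (0.787%), of which 12 were lower and 46 higher with ATRA. VIM was 1 of the 12, and no other member was among the 58. No left-out array ended a VIM call in these 6 comparisons. Without the 6 arrays of high median, VIM was still called with ATRA in WT (-2.31), Scr (-2.30), shEZH2#1 (-3.26) and shEZH2#2 cells (-3.03), with adjusted p up to 0.00323.

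**Figure D1:**
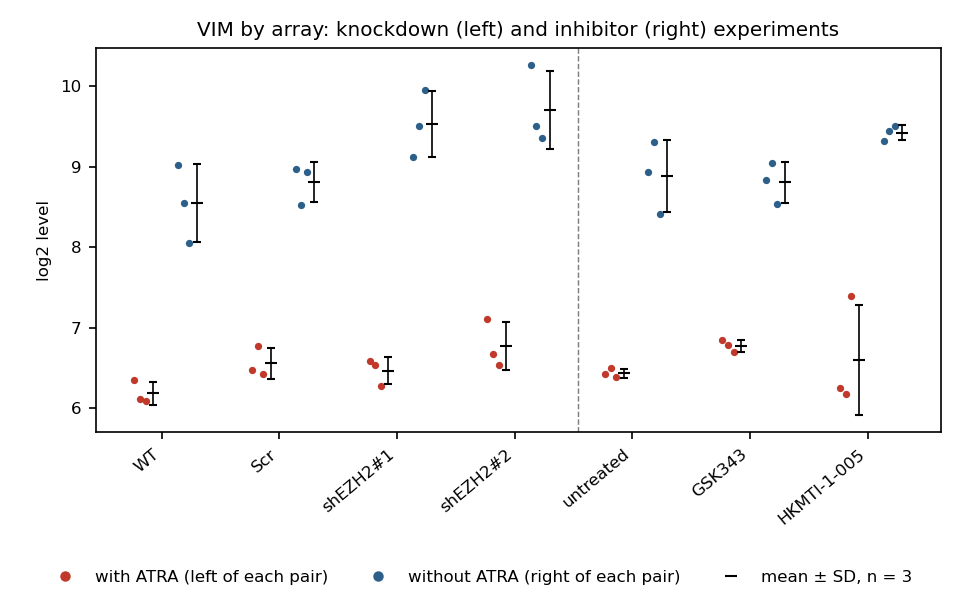
Log2 level of VIM on each of the 42 arrays, in pairs of groups with ATRA (red, left) and without ATRA (blue, right), with the knockdown experiment left of the dashed line and the inhibitor experiment right of it. Points are arrays and black marks the mean ± SD (n = 3); arrays with ATRA sit at 7.39 or below and arrays without it at 8.06 or above.

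Ordered by mean, the 7 groups with ATRA came first, WT+ATRA lowest (6.19 ± 0.14, SD, n = 3) and GSK343+ATRA highest (6.78 ± 0.075, SD, n = 3). The groups without ATRA then ran from WT (8.55 ± 0.48, SD, n = 3) to shEZH2#2 (9.71 ± 0.48, SD, n = 3). Neighbouring groups in this order overlapped, except WT+ATRA below ATRA, GSK343+ATRA below WT and untreated below HKMTI-1-005. Over the 14 group means, the genes most like VIM were RERE (Pearson r = 0.956), SLC19A1, a folate transporter (0.943), PREX1, a Rac exchange factor of neutrophils (0.941), SPNS3 (0.940) and GADD45B, a stress-response gene (0.938). These groups share arrays and the ATRA contrast, and the values are a description. The size of the range differed among them: SPNS3 group means ran from 5.58 to 9.35, while those of RERE ran from 8.41 to 8.86. None of 13 other cytoplasmic intermediate filament and linker genes on the list had a mean in the top 40%, so these 13 could not be called.

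LBR was higher with ATRA in each of the 6 tested backgrounds. With shEZH2#1 it stood at 11.82, 11.63 and 11.67 with ATRA, against 10.87, 11.11 and 11.03 without (log2 fold change 0.70, standard error 0.12, adjusted p = 0.000228). With shEZH2#2 it stood at 11.92, 11.65 and 11.60 with ATRA, against 11.14, 10.95 and 10.93 without (0.72, adjusted p = 0.000175). In Scr cells LBR stood at 11.58, 11.67 and 11.47 with ATRA, against 10.56, 10.63 and 10.97 without. The log2 fold change was 0.85 (adjusted p = 3.32e-05). Scr replicates 1 and 2, which are among the 6 arrays of high median, had the lowest LBR levels of the series, and without the 6 the change was 0.65 against the lone Scr array (adjusted p = 0.0841). In HKMTI-1-005-treated cells LBR stood at 11.64, 11.71 and 11.42 with ATRA, against 10.89, 11.08 and 10.93 without (0.62, adjusted p = 0.00156). The groups did not overlap in these 4 backgrounds, as was the case for 29.1% of callable genes with shEZH2#1, 23.4% with shEZH2#2, 14.4% in Scr and 27.0% in HKMTI-1-005-treated cells. LBR was still called without the 6 arrays with shEZH2#1 (0.63, adjusted p = 0.00122) and shEZH2#2 (0.69, adjusted p = 0.000489).

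The smaller rises of LBR, in GSK343-treated and WT cells, each rested on several arrays. In GSK343-treated cells LBR stood at 11.27, 11.53 and 11.57 with ATRA, against 10.82, 11.04 and 11.19 without (0.44, adjusted p = 0.0229). That call ended without any one of GSK343 replicates 1 and 2 and GSK343+ATRA replicates 2 and 3 (adjusted p between 0.0750 and 0.157). In WT cells LBR stood at 11.47, 11.59 and 11.15 with ATRA, against 10.83, 11.02 and 10.94 without (0.47, adjusted p = 0.0406). It ended without any WT array or without WT+ATRA replicate 1 or 2 (adjusted p between 0.0673 and 0.229). Without the 6 arrays, which include WT+ATRA replicate 3, it was 0.60 in WT cells (adjusted p = 0.00481). The groups did not overlap in either background, nor did those of 36.5% of callable genes in GSK343-treated and 15.1% in WT cells. In untreated cells, as a description, LBR stood at 11.39, 11.73 and 11.43 with ATRA, against 10.92, 11.09 and 11.02 without. In all 6 tested comparisons together, 53 genes were called higher and 18 lower, 0.964% of those that could be called; LBR was among those called higher and VIM among those called lower.

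The differences of the SUN genes with ATRA had opposite signs. SUN1 had lower levels with ATRA in all 6 backgrounds, with log2 fold changes from -0.61 to -0.19, and reached an adjusted p of at most 0.05 in 4 of them without being callable. In Scr cells SUN1 stood at 6.66, 6.41 and 6.38 with ATRA, against 7.19, 7.02 and 7.09 without (-0.61, adjusted p = 0.00189). With shEZH2#1 it stood at 6.53, 6.17 and 6.24 with ATRA, against 6.88, 6.84 and 6.69 without (-0.49, adjusted p = 0.00730). These SUN1 differences without the 6 arrays were -0.56 against the lone Scr array (adjusted p = 0.266) and -0.46 with shEZH2#1 (adjusted p = 0.0407). The smallest of these differences was in GSK343-treated cells (-0.19, adjusted p = 0.433). SUN2 was called higher with ATRA with both EZH2 hairpins. With shEZH2#2 SUN2 stood at 8.86, 8.47 and 8.15 with ATRA, against 7.67, 7.88 and 7.66 without (0.76, standard error 0.14, adjusted p = 0.000778; 0.83, adjusted p = 0.00141 without the 6 arrays). With shEZH2#1 it stood at 8.66, 8.40 and 8.36 with ATRA, against 7.61, 7.99 and 7.99 without (0.61, adjusted p = 0.00665). The call with shEZH2#1 ended without shEZH2#1 replicate 1 (adjusted p = 0.0865) or shEZH2#1+ATRA replicate 1 (adjusted p = 0.0668), and without the 6 arrays of high median, which left 2 shEZH2#1 arrays (0.49, adjusted p = 0.0794). In WT, Scr, GSK343-treated and HKMTI-1-005-treated cells the SUN2 differences were 0.32, 0.10, 0.33 and 0.27, and none passed. As a description, SUN2 stood at 8.51, 8.45 and 8.16 with ATRA alone, against 7.73, 7.73 and 7.84 in untreated cells. Those groups did not overlap, as for 42.3% of callable genes. Of 12 further LINC complex and envelope partner genes, 6 could be called and 0 were called by limma with ATRA in the 6 backgrounds (0 to 3 at an unadjusted p under 0.05, and 0 to 2 with the methods' t-test, unadjusted).

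FSCN1 was called lower with ATRA in 5 of the 6 tested backgrounds. As a description, FSCN1 stood at 9.03, 8.84 and 8.68 with ATRA alone, against 9.42, 9.43 and 9.59 in untreated cells. There was no overlap, as for 42.3% of callable genes in that contrast. With shEZH2#1 its levels were 8.43, 8.40 and 8.44 with ATRA, against 9.41, 9.65 and 9.70 without (log2 fold change -1.16, standard error 0.13, adjusted p = 1.51e-07). With shEZH2#2 they were 8.14, 8.55 and 8.71 with ATRA, against 9.29, 9.60 and 9.28 without (-0.92, adjusted p = 8.86e-06). In HKMTI-1-005-treated cells they were 8.68, 8.46 and 8.49 with ATRA, against 9.32, 9.34 and 9.44 without (-0.82, adjusted p = 8.68e-05). The groups did not overlap in these 3 backgrounds, where 29.1%, 23.4% and 27.0% of callable genes had groups apart. The change without the 6 arrays was -1.25 with shEZH2#1 (adjusted p = 1.61e-07) and -0.82 with shEZH2#2 (adjusted p = 0.000107). In GSK343-treated cells FSCN1 stood at 8.77, 8.86 and 8.83 with ATRA, against 9.21, 9.43 and 9.37 without (-0.52, adjusted p = 0.00954), a call lost without GSK343+ATRA replicate 1 (adjusted p = 0.0586) or GSK343 replicate 2 (adjusted p = 0.0709). In Scr cells it stood at 9.06, 8.99 and 8.56 with ATRA, against 9.49, 9.47 and 9.32 without (-0.55, adjusted p = 0.0122). This call ended without Scr+ATRA replicate 3, Scr replicate 1 or Scr replicate 2 (adjusted p between 0.0727 and 0.118), and the difference was -0.29 (adjusted p = 0.731) without the 6 arrays of high median, where 2 Scr+ATRA arrays stood against 1 Scr array. In WT cells FSCN1 stood at 9.04, 9.07 and 9.05 with ATRA, against 9.03, 9.38 and 9.52 without, and these groups overlapped (-0.26, adjusted p = 0.517). Of 8 other actin bundling and crosslinking genes, 4 could be called and 0 were called by limma in these 6 comparisons (0 to 1 at an unadjusted p under 0.05, 0 with the methods' t-test, unadjusted).

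**Figure D2:**
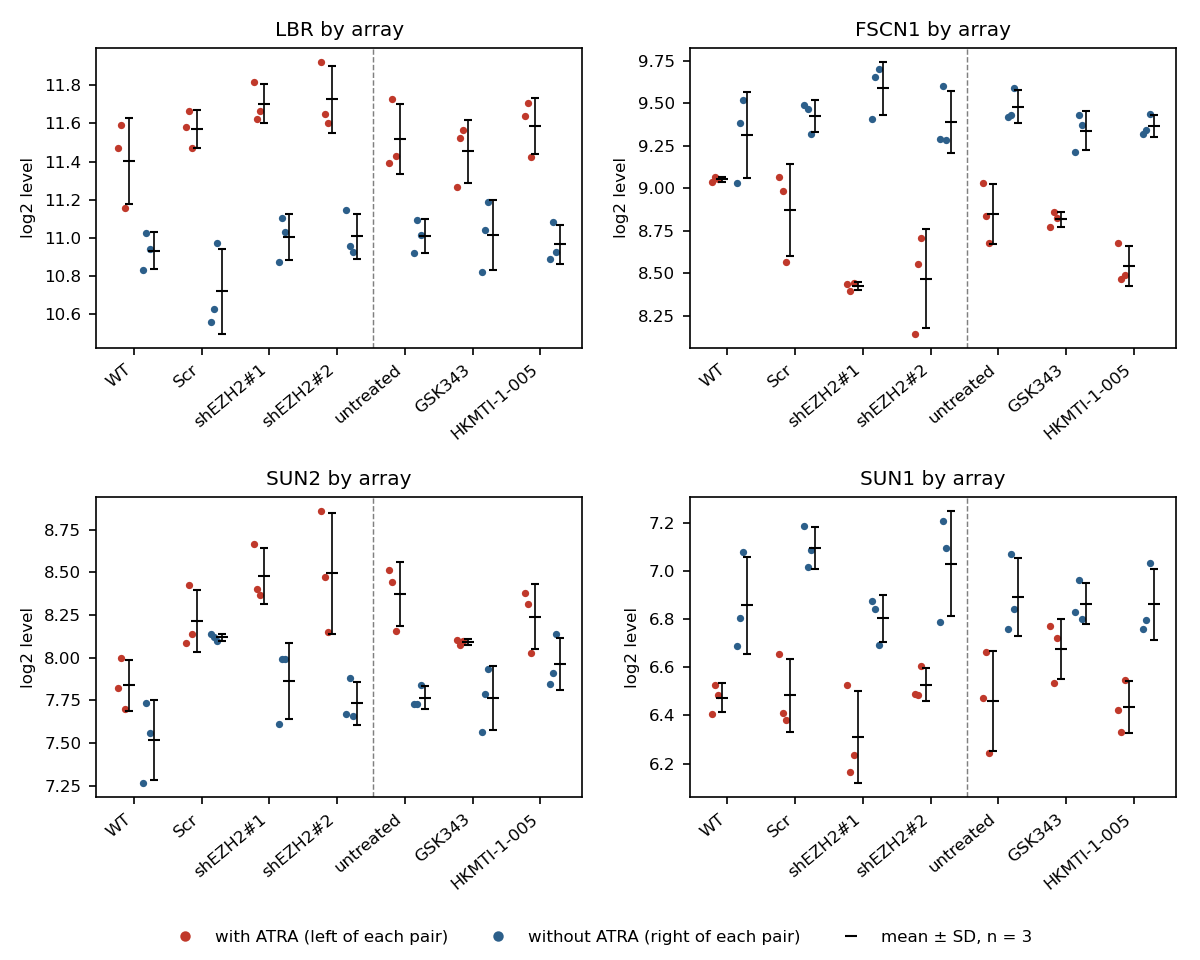
Log2 levels of LBR, FSCN1, SUN2 and SUN1 on each array, drawn as for VIM: ATRA in red on the left of each pair, no ATRA in blue on the right, mean ± SD in black (n = 3), knockdown experiment left of the dashed line. LBR is higher and FSCN1 and SUN1 have lower means with ATRA in each pair, and the LBR gap is widest in Scr cells, where its log2 fold change was 0.85.

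LMNA, LMNB1, LMNB2 and EMD were not called with ATRA in any of the 6 backgrounds. At an unadjusted p under 0.05, LMNB1 had lower levels in GSK343-treated and HKMTI-1-005-treated cells and EMD in WT cells, and with the methods' t-test, unadjusted none of these 4 genes passed. LMNB1 differed by between -0.40 and 0.03 on the log2 scale, LMNB2 by between -0.20 and 0.09, LMNA by between -0.34 and 0.30 and EMD by between -0.50 and 0.01. In GSK343-treated cells LMNB1 stood at 8.36, 8.28 and 8.73 with ATRA, against 8.68, 9.00 and 8.87 without (-0.40, 95% confidence interval -0.74 to -0.053, adjusted p = 0.178), with overlap. In HKMTI-1-005-treated cells LMNB1 stood at 8.74, 8.58 and 8.56 with ATRA, against 8.85, 9.22 and 8.86 without, with no overlap, as for 27.0% of callable genes (-0.36, interval -0.70 to -0.013, adjusted p = 0.392). In WT cells EMD stood at 9.29, 9.36 and 8.58 with ATRA, against 9.52, 9.61 and 9.59 without (-0.50, interval -0.93 to -0.065, adjusted p = 0.397). These EMD groups did not overlap, as was true of 15.1% of callable genes, and the lowest array, WT+ATRA replicate 3, is one of the 6 arrays of high median. The other 5 such arrays were likewise the lowest for EMD in their groups: Scr replicates 1 and 2 at 8.78 and 8.72 beside 9.57, Scr+ATRA replicate 3 at 8.33 beside 9.09 and 9.14, shEZH2#1 replicate 1 at 8.96 beside 9.47 and 9.51, and shEZH2#2 replicate 2 at 8.91 beside 9.45 and 9.45. Without the 6 arrays the EMD difference with ATRA in WT cells was -0.25 (adjusted p = 0.530 from limma). Beyond such refits, the part of the array median in the EMD levels was not tested. LMNB2 lay between 8.54 and 9.18 in the 18 tested arrays with ATRA and between 8.78 and 9.31 in the 18 without. LMNA lay between 6.59 and 8.32 with ATRA and between 7.29 and 8.46 without.

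Of 50 callable partner genes on the LINC, LEM domain, prelamin, actin bundling and nuclear pore lists, 3 were called with ATRA with shEZH2#1, 2 with shEZH2#2, 1 in GSK343-treated cells and 0 in the other 3 backgrounds. These are 6%, 4%, 2% and 0%, beside 8.65%, 8.36% and 10.4% of all callable genes in the first 3 and 2.13% to 4.98% in the others. None of 4 prelamin processing genes were called by limma (0 to 1 at an unadjusted p under 0.05, 0 with the methods' t-test, unadjusted). Of 11 LEM domain and lamina-binding genes, the 1 called was ANKLE1, which encodes a LEM-domain endonuclease of blood cells, lower with shEZH2#1 (-0.62, adjusted p = 0.0287) and shEZH2#2 (-0.58, adjusted p = 0.0444). Of 25 nuclear pore genes, NUP88 was called lower with shEZH2#1 (-0.41, adjusted p = 0.0311), shEZH2#2 (-0.55, adjusted p = 0.00291) and GSK343 (-0.40, adjusted p = 0.0308), and NUP210 higher with shEZH2#1 (0.57, adjusted p = 0.0465). Each ANKLE1, NUP88 and NUP210 call ended without at least 1 array of its comparison. For NUP88 with shEZH2#2 that was shEZH2#2+ATRA replicate 1 (adjusted p = 0.0740), and for the others it was 3 or 4 of the 6 arrays in turn (adjusted p up to 0.431).

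**Figure D3:**
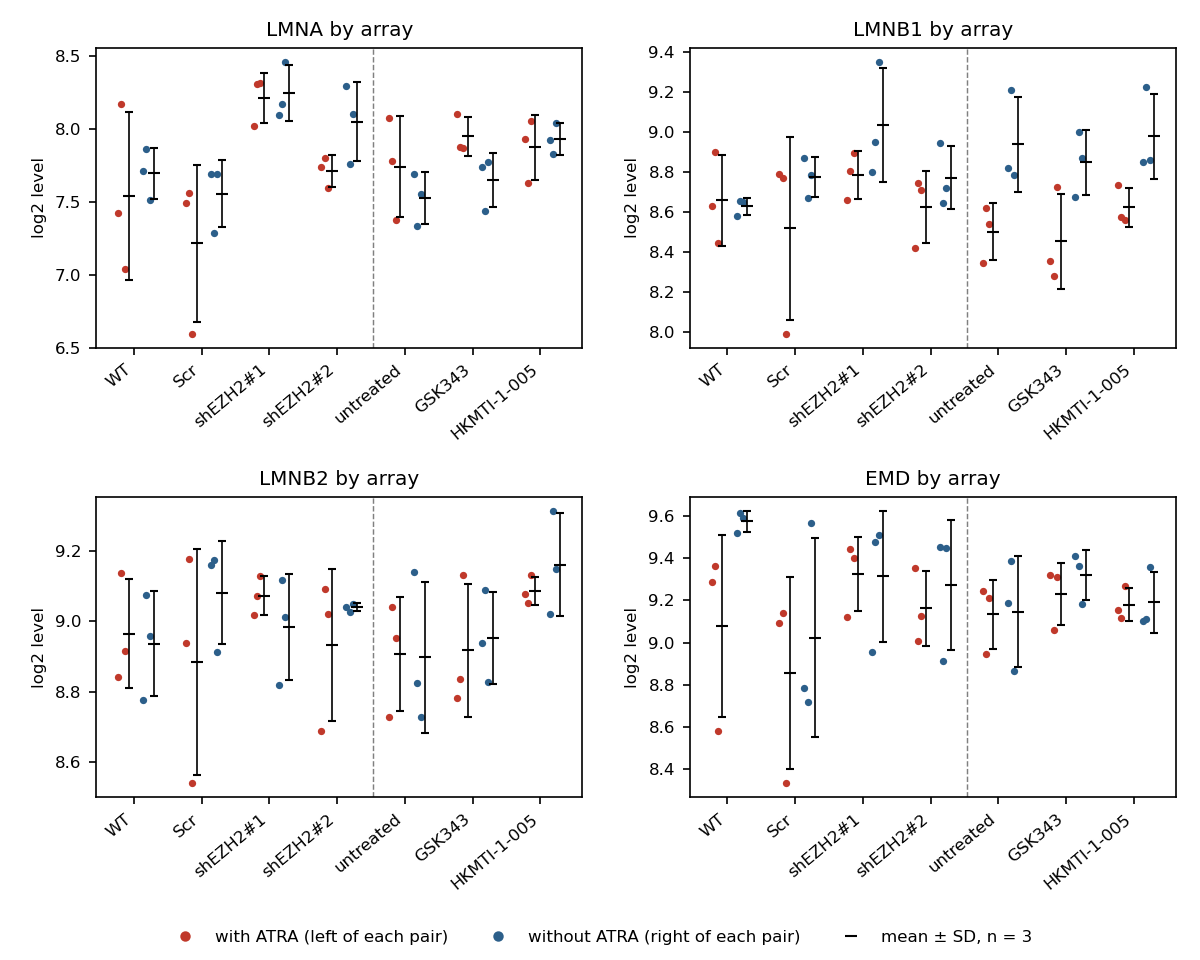
Log2 levels of LMNA, LMNB1, LMNB2 and EMD on each array, with ATRA (red, left of each pair) and without (blue, right), mean ± SD in black (n = 3). LMNB2 lies between 8.54 and 9.18 with ATRA and between 8.78 and 9.31 without in the tested backgrounds.

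Markers of maturation were read in the same contrasts. CD38, a surface enzyme and known retinoic acid target, was called higher with ATRA in each of the 6 backgrounds, with log2 fold changes from 2.17 to 3.54, and no left-out array ended a call. ITGAM, which encodes CD11b, was called higher with both hairpins and with both inhibitors but not in WT or Scr cells. Its calls ended without GSK343+ATRA replicate 1 or 2 (adjusted p between 0.0635 and 0.0653) and without HKMTI-1-005 or HKMTI-1-005+ATRA replicate 1 or 2 (adjusted p between 0.0631 and 0.156). Of 7 monocyte and macrophage markers, CD68, a lysosomal glycoprotein, and LYZ, which encodes lysozyme, could be called, and the monocyte receptor gene CD14 had a mean level of 4.52, at the 24.8th percentile. CD68 was called higher in all 6 backgrounds (0.73 to 1.31), while LYZ was called lower in WT cells (-1.06, adjusted p = 0.00112). The CD68 call ended without WT+ATRA replicate 2 in WT cells (adjusted p = 0.0758), without Scr replicate 1 or 2 or Scr+ATRA replicate 2 or 3 in Scr cells (adjusted p between 0.0514 and 0.135), without replicate 2 of GSK343 or GSK343+ATRA (adjusted p between 0.0661 and 0.0896) and without replicate 1 or 2 of HKMTI-1-005 or HKMTI-1-005+ATRA (adjusted p between 0.0581 and 0.0940). DHRS3 was also called higher in all 6 backgrounds (3.12 to 4.83). Of 5 callable primary granule genes, CTSG was called lower with shEZH2#2 (-1.41), GSK343 (-1.15) and HKMTI-1-005 (-1.44), and ELANE with GSK343 (-0.84). Leaving out single arrays ended each of these granule gene calls (adjusted p between 0.0519 and 0.189). None of 20 proliferation genes were called by limma in the 6 comparisons (0 to 3 at an unadjusted p under 0.05, 0 with the methods' t-test, unadjusted). The part of maturation stage in the levels of the members was not tested.

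**Figure D4:**
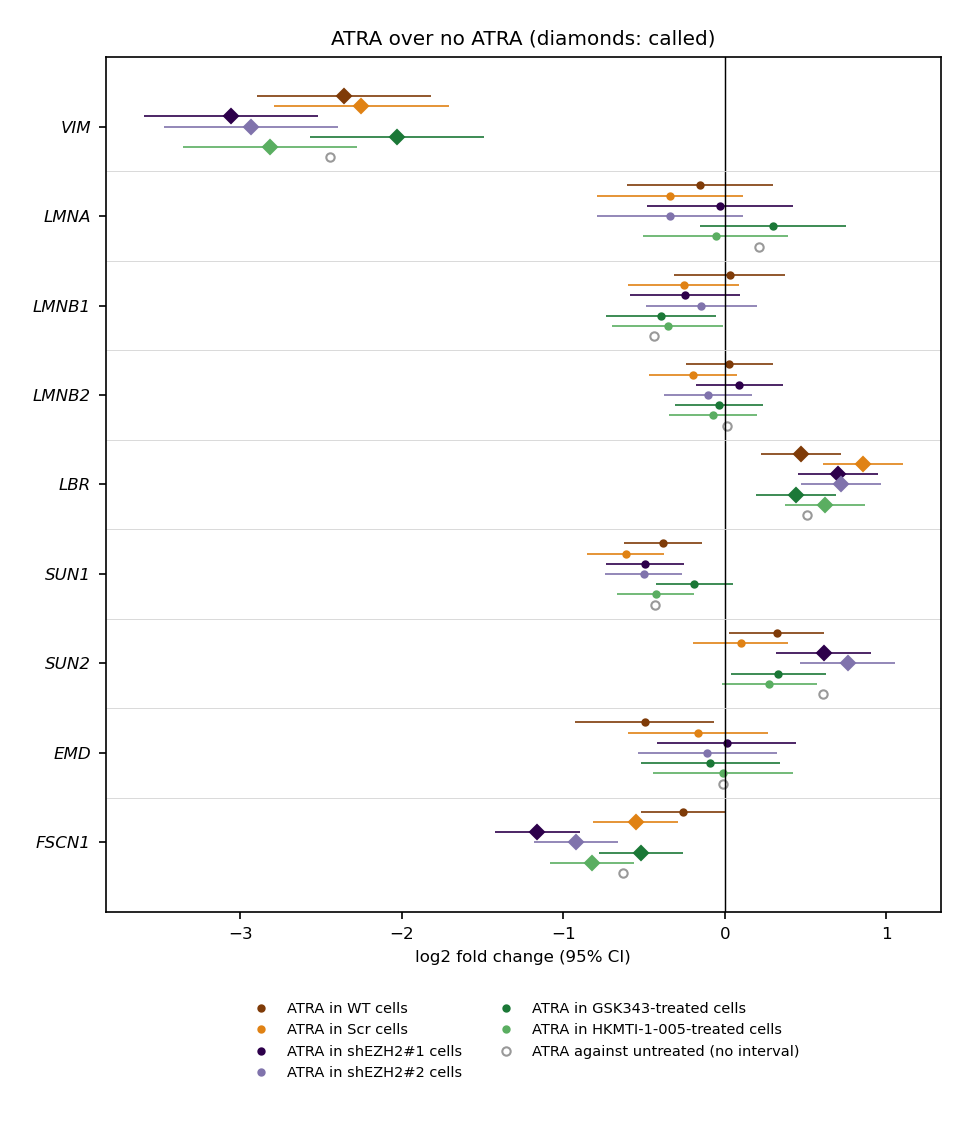
Log2 fold change of the 9 genes with ATRA in 6 tested backgrounds, with 95% confidence intervals from limma, and in untreated cells as open circles with no interval; diamonds are called. VIM sits between -3.06 and -2.03 in the tested backgrounds and LBR between 0.44 and 0.85, while LMNA, LMNB1, LMNB2 and EMD have no diamond.

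EZH2 knockdown went with higher VIM in cells not given ATRA. VIM stood at 9.13, 9.51 and 9.95 with shEZH2#1 and at 10.26, 9.51 and 9.36 with shEZH2#2, against 8.97, 8.52 and 8.93 in Scr cells and 9.03, 8.55 and 8.06 in WT cells. The 6 knockdown arrays lay above the 3 Scr arrays and above the 3 WT arrays. Groups were apart for 5.92% of callable genes in KD against Scr and for 6.53% in KD against WT. Untreated replicate 2 of the inhibitor experiment, at 9.30, lay above shEZH2#1 replicate 1, at 9.13. The log2 fold change was 0.81 against Scr (standard error 0.23, adjusted p = 0.0390), where 6.12% of genes were called, and 1.07 against WT (standard error 0.23, adjusted p = 0.0243), where 0.407% were. These comparisons share the knockdown arrays. The call against Scr ended without Scr replicate 1 or 2, shEZH2#1 replicate 2 or 3 or shEZH2#2 replicate 1 (adjusted p between 0.0595 and 0.333). Without the 6 arrays of high median it was 0.84 against the lone Scr array (adjusted p = 0.677) and 1.22 against WT (adjusted p = 0.0216). Against WT it ended without WT replicate 2 or 3 or shEZH2#2 replicate 1 (adjusted p between 0.0693 and 0.258), and neither hairpin passed alone against either control (adjusted p between 0.0569 and 0.127). No other member was called in these comparisons. In KD cells CD68 was also called higher against Scr (0.67, adjusted p = 0.0177). The CD68 call was lost without Scr replicate 1 or 2 or shEZH2#2 replicate 1 (adjusted p between 0.0526 and 0.157). PRTN3, a primary granule protease, was called higher in KD than in WT cells (0.96, adjusted p = 0.0360). That call ended without any one of 6 arrays (adjusted p between 0.0628 and 0.289). PRTN3 was also called higher in Scr than in WT cells, by 1.44. The part of CD68 and PRTN3 in the VIM difference was not tested.

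With ATRA, VIM was not called between EZH2 KD and control cells. The KD+ATRA difference was 0.06 against Scr+ATRA (95% confidence interval -0.40 to 0.53) and 0.43 against WT+ATRA (interval -0.032 to 0.90), where VIM passed the methods' t-test, unadjusted. The difference between its knockdown effects with and without ATRA was not called either (interaction -0.75 against Scr and -0.64 against WT). FSCN1 was lower in KD+ATRA cells, at 8.43, 8.40 and 8.44 with shEZH2#1 and 8.14, 8.55 and 8.71 with shEZH2#2, against 9.06, 8.99 and 8.56 in Scr+ATRA cells and 9.04, 9.07 and 9.05 in WT+ATRA cells. The log2 fold change was -0.61 against WT+ATRA (standard error 0.11, adjusted p = 0.00140), where 3.28% of genes were called. These groups did not overlap, as for 7.44% of callable genes. It was -0.42 against Scr+ATRA (standard error 0.11, adjusted p = 0.0249), where 5.38% were called and the groups overlapped. The call against Scr+ATRA ended without Scr+ATRA replicate 1 or 2 or shEZH2#2+ATRA replicate 1 (adjusted p between 0.0897 and 0.177). Without the 6 arrays the change was -0.60 against WT+ATRA (adjusted p = 0.00522) and -0.58 against Scr+ATRA (adjusted p = 0.00502). Myeloid markers were called in the same comparisons. ITGAM was higher in KD+ATRA cells by 1.95 against Scr+ATRA and by 1.61 against WT+ATRA. CD68 was higher by 1.23 against Scr+ATRA and LYZ by 1.19 against WT+ATRA. The primary granule genes AZU1 (1.35), PRTN3 (1.47) and ELANE (0.85) were also called higher in KD+ATRA than in WT+ATRA cells. The ELANE call ended without WT+ATRA replicate 1 (adjusted p = 0.0693). The hairpins differed in these genes. The mean level of the 5 measured primary granule genes was 9.78 with shEZH2#1 and ATRA and 8.65 with shEZH2#2 and ATRA. It was 8.42 in WT+ATRA and 9.27 in Scr+ATRA cells. LYZ (0.82), AZU1 (1.09), PRTN3 (1.68) and ELANE (1.23) were called higher in Scr+ATRA than in WT+ATRA cells as well. The part of all these markers in the FSCN1, LMNA and SUN2 differences between these groups was not tested.

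LMNA and SUN2 were each called higher in KD+ATRA cells against 1 of the controls. LMNA stood at 8.02, 8.31 and 8.32 with shEZH2#1 and ATRA and at 7.74, 7.80 and 7.59 with shEZH2#2 and ATRA, against 7.49, 7.56 and 6.59 in Scr+ATRA cells. The difference of 0.75 (standard error 0.19, adjusted p = 0.0217) rested on Scr+ATRA replicate 3, an array of high median, and was 0.44 without it (adjusted p = 0.368) and 0.44 without the 6 arrays (adjusted p = 0.173); against WT+ATRA it was 0.42 (adjusted p = 0.337). In cells not given ATRA the LMNA difference was 0.59 against Scr (adjusted p = 0.0720) and 0.45 against WT (adjusted p = 0.374). SUN2 was higher by 0.64 in KD+ATRA cells than in WT+ATRA cells (standard error 0.12, adjusted p = 0.00252; adjusted p = 0.0549 without WT+ATRA replicate 3; 0.57, adjusted p = 0.0321 without the 6 arrays), and by 0.27 than in Scr+ATRA cells (adjusted p = 0.262). LMNB1, LMNB2, LBR, SUN1 and EMD were called in none of these 4 knockdown comparisons. At an unadjusted p under 0.05, LBR passed against Scr and between KD+ATRA and WT+ATRA cells, and EMD between KD+ATRA and Scr+ATRA cells. Under its fold and level rules, the methods' t-test, unadjusted, called none of these 5 genes, and SUN1 could not meet the level rule.

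Of the 50 callable partner genes, 3 were called in KD against Scr cells (6%, beside 6.12% of all callable genes), 2 in KD+ATRA against Scr+ATRA (4%, beside 5.38%), 0 in KD against WT (0%, beside 0.407%) and 1 in KD+ATRA against WT+ATRA (2%, beside 3.28%). Of the 6 callable LINC complex and envelope partners, TMEM43, an inner nuclear membrane protein, and TOR1A, an ATPase of the envelope lumen, were higher in KD cells than in Scr cells (0.74, adjusted p = 0.0451, and 0.71, adjusted p = 0.00986), and TOR1A was higher in KD+ATRA than in Scr+ATRA cells (0.61, adjusted p = 0.0224). The controls differed for both genes, which were called lower in Scr than in WT cells (TMEM43 -1.02, TOR1A -0.78), so that KD cells differed from WT cells by -0.28 for TMEM43 and by -0.08 for TOR1A, with no call. Against the lone Scr array left without the 6 arrays the KD differences were 0.23 for TMEM43 and 0.22 for TOR1A. Both calls against Scr also ended without Scr replicate 1 or 2 (adjusted p between 0.128 and 0.453), and that of TMEM43 without replicate 2 or 3 of shEZH2#1 or replicate 1 or 3 of shEZH2#2 (adjusted p between 0.0819 and 0.117). The TOR1A call with ATRA ended without Scr+ATRA replicate 1 or 3 or without replicate 1 of either hairpin with ATRA (adjusted p between 0.0506 and 0.124). The nuclear pore gene NUP88 was called lower in KD+ATRA cells, at -0.51 against Scr+ATRA (adjusted p = 0.00341), which no left-out array ended, and at -0.42 against WT+ATRA (adjusted p = 0.0193), which ended without WT+ATRA replicate 2 or 3 or replicate 1 of either hairpin with ATRA (adjusted p between 0.0532 and 0.205). Of the 4 callable actin bundling genes, PLS1, a plastin, was higher in KD than in Scr cells (0.72, adjusted p = 0.0106; 0.64 against the lone Scr array left without the 6, adjusted p = 0.509), and the call ended without Scr replicate 1 or 2 (adjusted p between 0.0792 and 0.127). PLS1 was called lower in Scr than in WT cells (-1.27, adjusted p = 8.8e-05), and KD cells differed from WT cells by -0.55, with no call. The LEM domain list (11 genes) and the prelamin processing list (4 genes) had 0 genes called by limma in these 4 comparisons (1 to 5 and 0 to 2 at an unadjusted p under 0.05, 0 with the methods' t-test, unadjusted). Their medians against Scr without ATRA were 0.08 and 0.48, beside 0.13 over all callable genes.

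The controls differed from each other. In Scr cells SUN2 stood at 8.14, 8.12 and 8.10, against 7.27, 7.73 and 7.56 in WT cells, a log2 fold change of 0.60 (standard error 0.14, adjusted p = 0.00846). In this comparison 21.6% of genes were called. The SUN2 groups did not overlap, as for 26.9% of callable genes. The call ended without Scr replicate 1 or 2 or WT replicate 1 (adjusted p between 0.0569 and 0.0798). Without the 6 arrays of high median it was 0.58, with 1 Scr array against 3 WT arrays (adjusted p = 0.603). EMD differed by -0.55 (adjusted p = 0.0822), by -0.71 with arrays centred on their medians, where it was called (adjusted p = 0.0422), and by -0.0078 for the lone Scr array left without the 6. Among the 50 callable partner genes, 15 were called between Scr and WT cells (30%, beside 21.6% of all callable genes), 13 lower and 2 higher. All 4 callable prelamin processing genes were lower in Scr cells (-0.91 to -0.60, beside a median of -0.20 over all callable genes). They were FNTA, RCE1, ICMT and ZMPSTE24, which farnesylate, cleave and methylate prelamin A. Each of these 4 calls ended without Scr replicate 1 and without Scr replicate 2 (adjusted p between 0.119 and 0.348). Each also ended without WT replicate 1 (adjusted p between 0.0606 and 0.220). Scr replicate 3 alone, the Scr array left without the 6, differed from WT in these genes by between -0.10 and 0.0052 on the log2 scale. Between Scr+ATRA and WT+ATRA cells, 0.991% of genes and 0 members were called by limma. SUN2 alone passed an unadjusted p under 0.05 (0.38, adjusted p = 0.365), and 0 members passed the methods' t-test, unadjusted.

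The effect of ATRA itself was compared between backgrounds. On FSCN1 it was more negative in KD cells than in WT cells by 0.78 on the log2 scale (interaction -0.78, standard error 0.16, adjusted p = 0.0349), where 2 of 7367 genes (0.0271%) were called. That call ended without any one of 12 of the 18 arrays (adjusted p between 0.0510 and 0.287) and without the 6 arrays of high median (-0.78, adjusted p = 0.148). Against Scr cells the FSCN1 interaction was -0.49 (adjusted p = 0.372), and 0 members were called where 0.0814% of genes were; FSCN1, SUN2 (0.59, adjusted p = 0.319) and VIM (-0.75, adjusted p = 0.553) had an unadjusted p under 0.05. Between Scr and WT cells, 0 genes (0%) and 0 members were called by limma, and LBR had an unadjusted p under 0.05 (0.38, adjusted p = 0.561).

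No member was called with either inhibitor. The untreated and ATRA arrays that served as controls here are those on which VIM was picked. GSK343-treated cells had VIM at 8.84, 9.05 and 8.54, against 8.93, 9.30 and 8.42 in untreated cells (log2 fold change -0.08, 95% confidence interval -0.61 to 0.46, adjusted p = 1.00). The 9 members differed by at most 0.17 in size between GSK343 and untreated cells, 0 had an unadjusted p under 0.05, and 0.0136% of genes were called. HKMTI-1-005-treated cells had VIM at 9.32, 9.45 and 9.50, all above the untreated 8.93, 9.30 and 8.42, where 15.1% of callable genes had groups apart (0.54, interval 0.00064 to 1.08, adjusted p = 0.935). VIM was the member with an unadjusted p under 0.05 in that comparison, where 0.217% of genes were called, and LMNA (0.40, adjusted p = 1.00) was the member that passed the methods' t-test, unadjusted. In GSK343+ATRA cells against ATRA alone, 0.0136% of genes and 0 members were called (0 at an unadjusted p under 0.05). There VIM stood at 6.85, 6.79 and 6.70, against 6.43, 6.50 and 6.38 with ATRA alone (log2 fold change 0.34). SUN2 stood at 8.10, 8.07 and 8.10, against 8.51, 8.45 and 8.16 (-0.28). For both genes the groups did not overlap, as for 7.6% of callable genes. In HKMTI-1-005+ATRA cells against ATRA alone, 0.76% of genes and 0 members were called. There FSCN1 stood at 8.68, 8.46 and 8.49, against 9.03, 8.84 and 8.68 with ATRA alone (-0.31, interval -0.57 to -0.045, adjusted p = 0.339), and it was the member with an unadjusted p under 0.05. Without adjustment, the methods' t-test called 0 members in either comparison. The inhibitors were given at different doses, so they were not compared with each other.

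**Figure D5:**
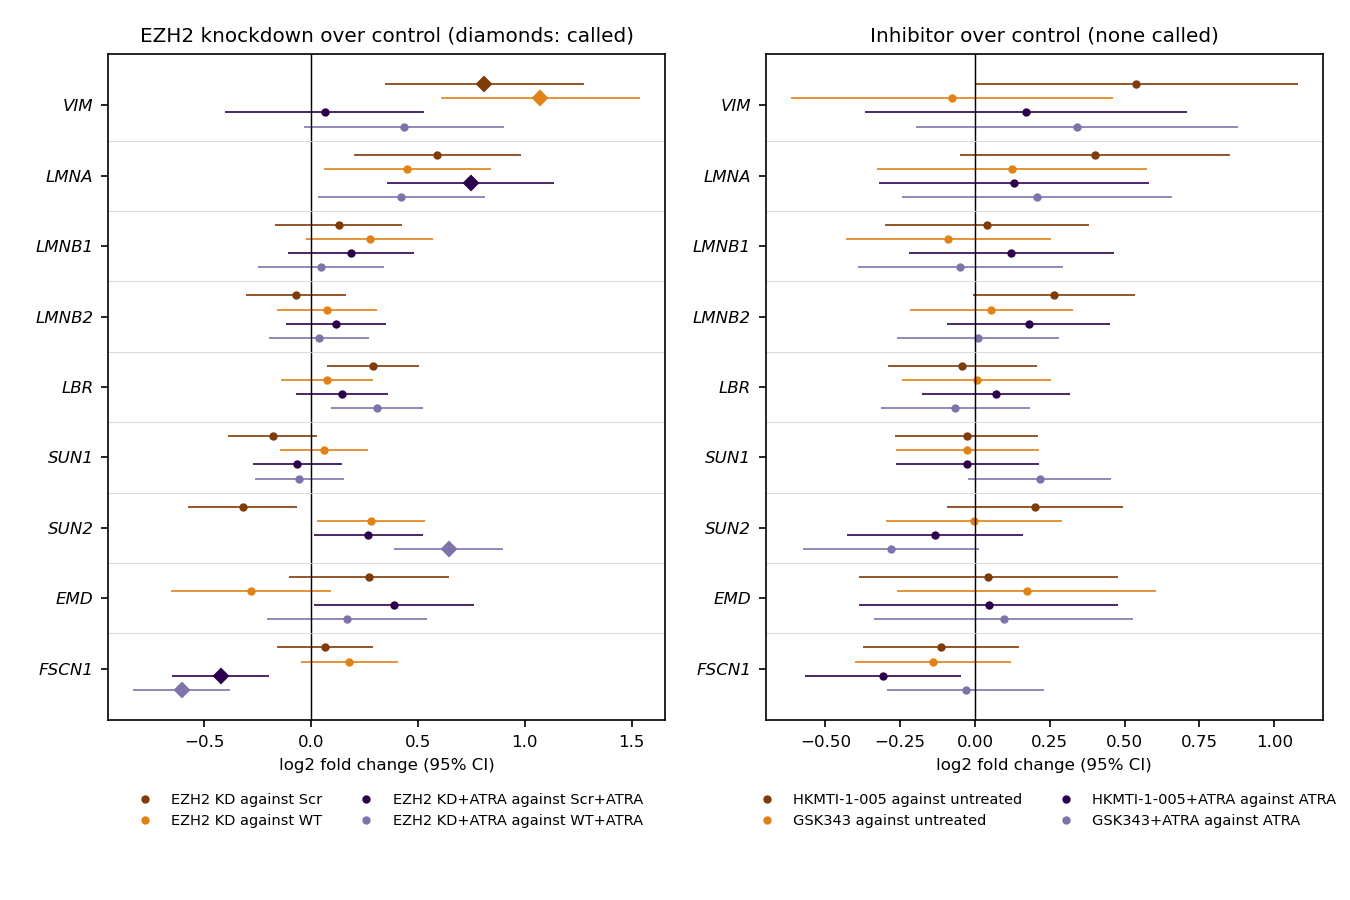
Log2 fold changes of the 9 genes with 95% confidence intervals from limma, for EZH2 KD over Scr or WT with and without ATRA (left) and for each inhibitor over its control (right); diamonds are called. VIM is called at 0.81 and 1.07 without ATRA, FSCN1 at -0.42 and -0.61 with ATRA, and no inhibitor comparison holds a diamond.

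Across the 14 group means the members fell into opposite patterns, as a description. VIM and SUN1 (Pearson r = 0.898), VIM and FSCN1 (0.867) and SUN1 and FSCN1 (0.858) varied together, and LBR ran opposite to FSCN1 (-0.937), SUN1 (-0.936) and VIM (-0.889). The largest coefficient of LMNB2 with another member was 0.48, with LMNA. The 14 means share the ATRA contrast and include the groups on which VIM was picked.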

How the data were processed

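RNA of HL-60 cells was read on 42 arrays in 14 groups of 3, as the labels give them. The deposited log2 values are the authors' own, made by GC-RMA normalization and then removal of batch and date effects, in Partek Genomics Suite. Which batches were removed is not stated in what was read for this work, so no batch term could be fitted. The study calls the 3 arrays of a group biological replicates, while the labels name no separate cultures. The p-values measure the spread between these arrays after that removal. That the values are log2 was taken from their range (3.18 to 14.5). Of 33297 probe sets, 19460 carried 1 gene symbol, 1754 several and 12083 none. The brightest probe set with 1 symbol stood for each of 18417 genes. One limma model (version 3.58.1, R 4.3.3) held a mean for each of the 14 groups (28 residual degrees of freedom, 3.37 prior). Benjamini-Hochberg adjustment ran over all genes within each of 19 tested comparisons. The call rule follows the thresholds in the methods. The number of arrays limits the precision. No pair of arrays held identical values.

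The members and all gene lists were chosen with earlier results of these data known. The text names all members, EZH2, the 5 genes most like VIM and up to 4 called genes of each list in a comparison; 12 listed genes were not analysed here. The procedure was tested on simulated data, for ATRA in WT cells and for KD against Scr. It called 22% and 26% of simulated 1.3-fold changes, 54% and 52% of 1.5-fold changes and 92% of 2-fold changes. A gene that was not called may therefore still have changed by a small fold. Alternatives changed the fit, filter, fold, scaling, probe-set rule, variance model and test, used 1 hairpin, dropped 6 arrays of high median and left out each array in turn. Same-numbered arrays deviated together in all 3 pairs for GSK343 and untreated cells (r from 0.433 to 0.475), HKMTI-1-005 and untreated cells (0.202 to 0.366), Scr+ATRA and WT+ATRA cells (0.174 to 0.576) and shEZH2#2 cells with and without ATRA (0.160 to 0.638), but not elsewhere, and the labels do not say what a number marks.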

Additional observations from a re-analysis of the deposited data

Results flagged for a closer look

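The response of FSCN1 to ATRA differed between EZH2 KD cells and WT cells by a test of the difference itself (interaction -0.78 on the log2 scale, adjusted p = 0.0349 from limma). FSCN1 differed by -1.16 with shEZH2#1, -0.92 with shEZH2#2 and -0.26 in WT cells. Against Scr cells, where ATRA went with a difference of -0.55, the corresponding term did not pass (-0.49, adjusted p = 0.372). Groups of 3 arrays were too small to test for single outlying arrays, and each array was left out in turn.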

How the results depend on the processing

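Over all alternatives, 3883 member values kept their side of the threshold, 119 lost a call and 21 gained one. Of values called in the main fit or the alternative, 0 changed sign. Values called in neither could change sign and are among the 3883. One was LMNB2 with ATRA in Scr cells, at -0.20 in the main fit and 0.15 without the 6 arrays. The VIM calls with ATRA in 6 backgrounds were lost under 1 setting, the methods' t-test with Benjamini-Hochberg adjustment (adjusted p between 0.0820 and 0.394). That test called 0 members in all 6 ATRA comparisons, all 4 knockdown comparisons and Scr against WT. Unadjusted, it called 1 member for HKMTI-1-005 against untreated and 2 for KD against Scr and against WT. With ATRA in WT cells, 1 member was called with 1 fit per experiment, with only the groups compared, at a fold of 1.5 and with centred arrays. With ATRA in Scr cells 1 was called with only the groups compared and without the 6 arrays of high median, a choice made with these medians known, which leaves 1 Scr array, and in GSK343-treated cells 1 at a fold of 1.5. KD against Scr and against WT had 0 with 1 fit per experiment, with only the groups compared and with either hairpin alone. KD against Scr also had 0 with the array median as covariate and without the 6 arrays, and KD against WT 0 with centred arrays. VIM also lost its call against Scr under quantile normalization (adjusted p = 0.0574). KD+ATRA against Scr+ATRA had 0 with 1 fit per experiment, with only the groups compared and with shEZH2#2 alone, and 1 at a fold of 1.5, with centred arrays and without the 6 arrays. KD+ATRA against WT+ATRA had 0 with only the groups compared. Scr against WT had 0 with only the groups compared and without the 6 arrays, and 2 with centred arrays. The KD and WT interaction had 0 with 1 fit per experiment, with only the groups compared, with the covariate, with centred arrays, without the 6 arrays and with shEZH2#2 alone.

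Leaving out each array in turn gave 1 to 2 members with ATRA in WT cells, 2 to 3 in Scr cells, 3 to 4 with shEZH2#1, 4 to 4 with shEZH2#2, 1 to 3 with GSK343 and 3 to 3 with HKMTI-1-005. It gave 0 to 4 for KD against Scr, 0 to 1 against WT, 1 to 2 for KD+ATRA against Scr+ATRA, 1 to 3 against WT+ATRA, 0 to 2 for Scr against WT, 0 to 1 for the KD and WT interaction and 0 to 0 elsewhere. With the replicate number as a block, no count of members changed; with ATRA in WT cells 93 genes were called higher and 54 lower. Of the list genes, ELANE had -0.068 for KD+ATRA against WT+ATRA with shEZH2#2 alone and RCE1 had 0.0052 for Scr against WT without the 6 arrays, both with the sign turned; the cause was not tested. Centring moved the median of all genes to 0.11 for KD against Scr and to -0.17 for Scr against WT. SUN1 was called in 4 ATRA comparisons with no filter on the mean.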
